A study of Mus musculus with 41 samples.

Results

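The step from day 5 to day 10 of tibial fracture healing in 25-month-old mice was described across all genes of an expression array. The 5 arrays labelled 25 months and 10 days post fracture were compared with the 5 labelled 25 months and 5 days, which are 10 of the 41 arrays in the study. Mice of 5 months (young) or 25 months (old) from the NIH aged rodent colony had both tibiae pinned and broken with a blunt guillotine, under buprenorphine and isoflurane in every group. Total RNA of bone or callus was read before fracture (day 0) and 5, 10 and 20 days after it, on 1 array per mouse. The labels name neither strain nor sex. RNA came from the callus only or from the whole bone, and which of these each array held is not recorded in them.

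A broken long bone that can still move at the break heals through a cartilage model. Inflammatory cells clear the clot and damaged tissue, and progenitor cells from the periosteum then become chondrocytes, which build a matrix of collagen II and aggrecan. These cells enlarge, make collagen X, mineralise the matrix and attract vessels and resorbing cells, after which bone replaces the cartilage. The mean level over the cartilage matrix genes was higher on every old day 10 array than on every old day 5 array. Since the lists were chosen with earlier results of these data known, this describes the arrays and is no independent check of the labels. Mean log2 levels of bone matrix genes were 7.72 to 9.07 at day 5 and 8.89 to 9.65 at day 10. Those of fibrous matrix genes were 7.79 to 9.01 and 9.28 to 9.53.

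Values are log2 normalised intensities, so a change of 1 is a 2-fold difference of signal, and levels are not compared between genes. Changes are day 10 minus day 5 ± SE from a limma model of all 41 arrays, and a gene was called at an adjusted p under 0.05 over 19938 genes. Of these 5082 genes were called (25.5%), 2847 higher at day 10 (14.3%) and 2235 lower (11.2%). The median change over all genes was 0.02. In 3323 genes (16.7%) the 5 day 10 arrays did not overlap the 5 day 5 arrays, 1898 of them higher (9.52%) and 1425 lower (7.15%). Changes of at least 2-fold were called for 515 genes higher and 314 lower, and changes of at least 8-fold for 15 higher and 2 lower. These shares are the background against which every list below is read. In whole tissue, fewer cells of a type and less RNA per cell cannot be told apart.

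Among the 10 arrays, day 5 replicate 4 stood apart. Its mean correlation with the other arrays of its group was 0.973, against 0.982 to 0.985 for the other 4, and within day 10 replicate 1 had the lowest value (0.983 against 0.990 to 0.992). The mean level over 12 adipocyte genes was 8.09 on day 5 replicate 4 and 6.83 to 7.23 on the other day 5 arrays. Epidermal genes read 5.64 on day 5 replicate 5 and 4.28 to 4.38 on the others of that day. As a check, sample names were split by their form into 3 sets, called numbering series below. These are names starting with a letter, numbers under 50 and numbers over 50. The cut at 50 was chosen here, and names with different letters in front (H, P, NO and NON) were put together. Of the 5 day 5 names 4 start with a letter, while none of the day 10 names does. The labels define no such series and do not say what the names stand for. With the series as a block 3129 genes were called.

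**Figure D1:**
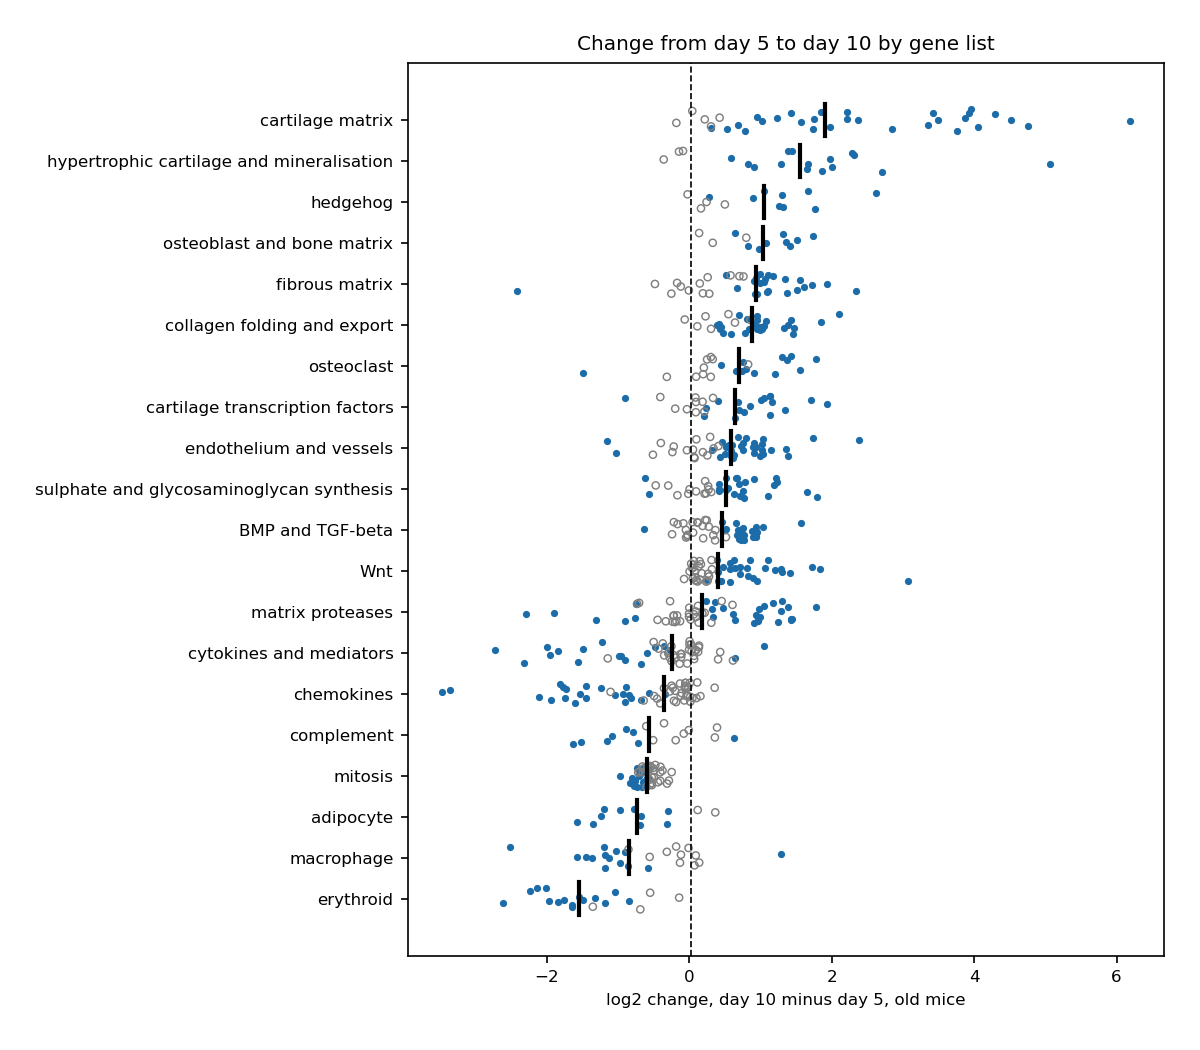
Log2 change from day 5 to day 10 in old mice for every measured member of 20 gene lists, 1 point per gene, filled where the gene was called at adjusted p under 0.05 and open where it was not; the bar is the list median and the dashed line the median of all genes (0.02). Cartilage matrix genes lie furthest to the right with a median of 1.91, and erythroid genes furthest to the left with a median of -1.55.

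Cartilage matrix rose as a block between day 5 and day 10. Of 34 measured cartilage matrix genes 29 were called higher (85.3%, against 14.3% of all genes) and 0 lower, with a median change of 1.91. In 28 of them the days did not overlap, against 9.52% of all genes in that direction. Among the 20 genes with the highest change and no overlap, 12 were cartilage matrix genes: Clec3a, Matn3, Cnmd, Hapln1, Acan, Ucma, Snorc, Scrg1, Col9a1, Col2a1, Mia and Comp. The mean level over the list ran from 6.15 to 7.0 on the day 5 arrays and from 8.22 to 9.06 on the day 10 arrays. The only day 5 array with a numbered sample name, replicate 1, had the highest day 5 mean (7.0). The 3 day 10 arrays of the same numbering series read 8.22, 8.76 and 8.96. With 1 day 5 array in that series, the step within it was not tested.

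Collagen II is the main fibre of cartilage. Col2a1 read 7.06, 7.24, 6.38, 6.12 and 6.02 at day 5 and 8.62, 10.25, 10.43, 10.42 and 10.58 at day 10. Every day 10 array lay above every day 5 array, and the change was 3.49 ± 0.37 (11.3-fold, adjusted p = 1.2e-08). Collagen IX decorates those fibres, and Col9a1, at 5.41, 5.82, 5.30, 5.46 and 4.86 at day 5 and 8.37, 9.07, 9.60, 9.24 and 9.33 at day 10, rose by 3.75 ± 0.26. Its partner chains Col9a3 and Col9a2 rose by 2.22 ± 0.22 and 1.73 ± 0.20. All 7 cartilage collagens measured were called higher, the smallest change being that of Col27a1 (0.78 ± 0.11).

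Aggrecan is the large proteoglycan that holds water in cartilage, and the link protein of Hapln1 fixes it to hyaluronan. Acan read 8.59, 8.74, 7.88, 5.51 and 6.34 at day 5 and 10.65, 11.62, 11.66, 11.52 and 11.89 at day 10. Hapln1 read 7.26, 7.33, 6.24, 5.09 and 4.57 at day 5 and 10.31, 10.04, 10.63, 10.33 and 10.65 at day 10. In both genes replicates 1 and 2 were the highest of the day 5 arrays, and neither gene's groups overlapped. Acan rose by 4.05 ± 0.50 (16.6-fold) and Hapln1 by 4.30 ± 0.53 (19.6-fold). Among leucine-rich repeat proteins of the matrix, Chad rose by 3.35 ± 0.47, Epyc by 1.97 ± 0.19, Fmod by 1.84 ± 0.27, Omd by 1.76 ± 0.41, Prelp by 1.23 ± 0.21 and Ogn by 1.02 ± 0.26. Biglycan and decorin, which are found in most connective tissue, did not pass the test (Bgn 0.43 ± 0.18, adjusted p = 0.073; Dcn 0.30 ± 0.13, adjusted p = 0.076).

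The highest change on the array belonged to Clec3a, a C-type lectin of cartilage. It read 6.47, 4.71, 4.63, 4.70 and 4.39 at day 5 and 10.18, 11.27, 11.41, 11.33 and 11.63 at day 10. Day 5 replicate 1 stood above the other 4 day 5 arrays and above the mean of unfractured old bone (4.95 at day 0), and all 5 day 10 arrays lay above every day 5 array, a change of 6.18 ± 0.52 (72.6-fold, adjusted p = 6.8e-11). Matn3 encodes matrilin 3, an adaptor between cartilage fibres. Its values were 6.52, 5.98, 5.50, 5.07 and 4.85 at day 5 and 9.61, 10.19, 10.94, 10.25 and 10.72 at day 10. Chondromodulin, encoded by Cnmd, keeps vessels out of cartilage. It read 5.74, 5.50, 4.68, 4.84 and 4.74 at day 5 and 9.51, 9.39, 9.91, 9.55 and 9.75 at day 10, again without overlap. Matn3 rose by 4.76 ± 0.41 and Cnmd by 4.52 ± 0.36. By day 20 the mean of Matn3 was 5.33 and that of Cnmd 5.15, close to their day 5 means of 5.58 and 5.10. The 3 members of this role that did not pass were Cilp (-0.18 ± 0.28), Vit (0.04 ± 0.20) and Cytl1 (0.22 ± 0.37), of which Cilp and Cytl1 are cartilage-associated secreted proteins.

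**Figure D2:**
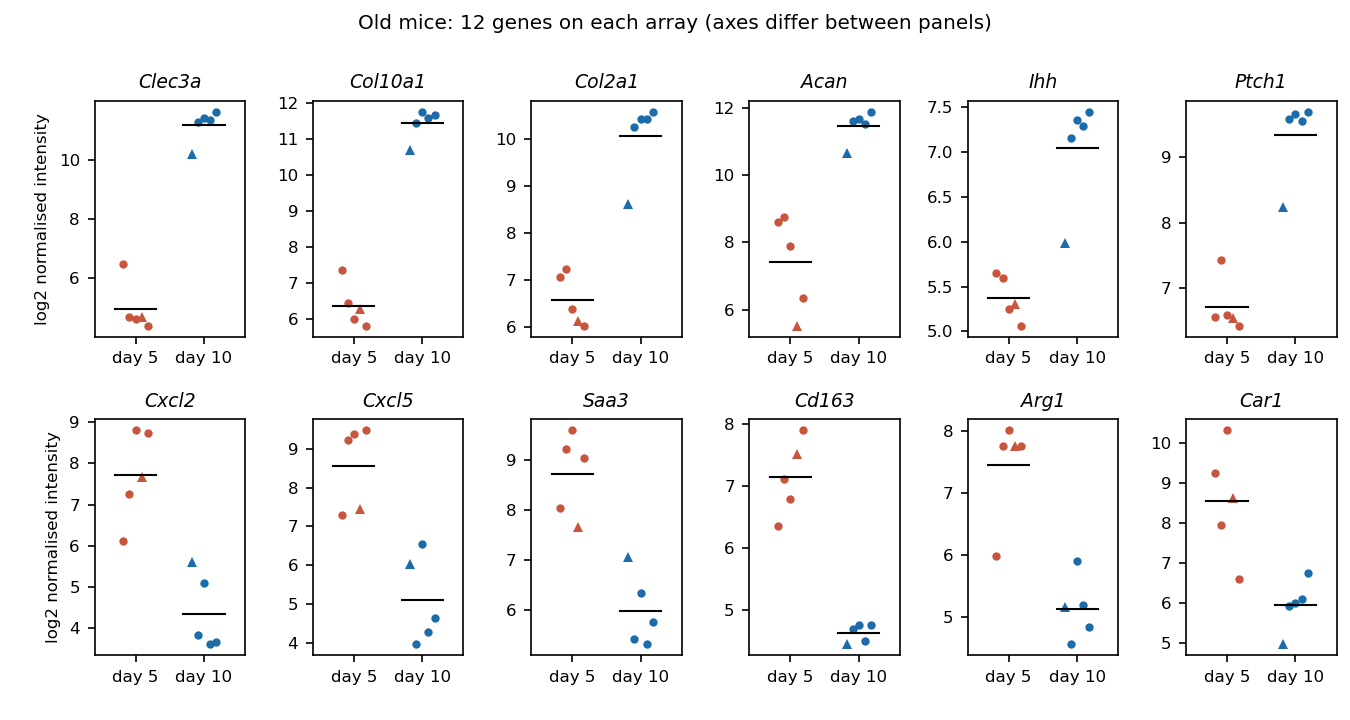
Log2 normalised intensity of 12 genes on each old day 5 and old day 10 array, 1 point per array with the group mean as a bar; the arrays described as standing apart (day 5 replicate 4 and day 10 replicate 1) are drawn as triangles. The 6 upper panels show genes that rose (Clec3a, Col10a1, Col2a1, Acan, Ihh and Ptch1) and the 6 lower panels genes that fell (Cxcl2, Cxcl5, Saa3, Cd163, Arg1 and Car1), and only Car1 has groups that overlap.

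Many of the enzymes a cell needs to make this matrix rose with it, 21 of the 35 measured, while 2 fell. Chondroitin sulphate, the sugar chain of aggrecan, takes its sulphate from a donor made by Papss2 and Papss1 after uptake through the transporter Slc26a2. All 5 measured genes of sulphate supply rose. Papss2 read 8.07, 8.29, 7.95, 7.06 and 7.66 at day 5 and 9.21, 9.32, 9.79, 9.16 and 9.85 at day 10, without overlap, and rose by 1.66 ± 0.19 (3.15-fold). Slc26a2 and Papss1 rose by 1.19 ± 0.19 and 1.11 ± 0.14. Of 15 genes for the linker and chains 10 rose and 0 fell, led by Xylt1, which places the first sugar on the core protein (1.80 ± 0.18), and by the chondroitin synthases Chsy3 (1.23 ± 0.20) and Chsy1 (0.91 ± 0.19). Of 10 sulphotransferases 5 rose, Chst11 the most (1.21 ± 0.22), and 1 fell, Hs6st1 (-0.57 ± 0.20), which acts on heparan sulphate. Under the series block 2 sulphotransferases rose and 0 fell, Hs6st1 no longer passing. Of 5 hyaluronan genes 1 rose, the hyaluronidase family member Hyal2 (0.41 ± 0.13), and 1 fell, the synthase Has1 (-0.62 ± 0.18). Has1 did not pass with that block. Has2 and Cd44, the hyaluronan receptor, did not pass (-0.47 ± 0.34 and -0.17 ± 0.15).

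Collagen folding and export is the other supply line. Procollagen chains are hydroxylated, folded by chaperones, carried in enlarged transport vesicles, cut at their ends and crosslinked. Of 34 such genes 27 rose and 0 fell, with a median of 0.88. The prolyl 3-hydroxylase family rose together (P3h2 1.47 ± 0.20, P3h3 1.45 ± 0.19, P3h4 1.32 ± 0.24, P3h1 0.81 ± 0.22), with their partner Crtap (0.95 ± 0.20). P3h3 read 7.43, 7.38, 6.99, 6.34 and 6.90 at day 5 and 8.37, 8.40, 8.64, 8.34 and 8.54 at day 10, with no overlap between the days. The transcription factors Creb3l1 and Creb3l2, which drive secretory capacity in matrix-making cells, rose by 1.38 ± 0.31 and 1.05 ± 0.18, and the vesicle coat genes Sec24d and Sec23a by 1.00 ± 0.19 and 0.78 ± 0.15. The general chaperone Hspa5, also called BiP, read a change of -0.06 ± 0.12 and did not pass (adjusted p = 0.74). Procollagen processing and crosslinking were led by Loxl4 (2.10 ± 0.31), Pcolce2 (1.85 ± 0.26) and Adamts3 (1.42 ± 0.18), while Lox itself did not pass (0.30 ± 0.26). The mean level over the list was lowest on day 5 replicate 4 (7.05, against 7.70 to 8.19 on the other 4), and without that array 22 of the 34 rose.

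Transcription factors of cartilage rose too. Sox9 starts and maintains the chondrocyte state and Sox5 assists it. Sox9 read 7.50, 7.37, 7.14, 6.34 and 6.63 at day 5 and 8.15, 8.15, 8.65, 8.15 and 8.61 at day 10. No day 10 array fell among the day 5 arrays, and the change was 1.34 ± 0.22 (2.54-fold, adjusted p = 1.6e-05). Sox5 rose by 0.85 ± 0.15 and Sox8 by 0.64 ± 0.11, and Sox6, the other usual partner of Sox9, did not pass (-0.41 ± 0.24, adjusted p = 0.22). Wwp2, which hosts a cartilage microRNA and binds Sox9, rose by 1.16 ± 0.16, and Foxa3 by 1.13 ± 0.14. In all, 8 of 13 chondrocyte factors rose and 0 fell. Of 14 factors of hypertrophy and bone 9 rose, among them Dlx5 (1.93 ± 0.33), Sp7, the osteoblast factor osterix (1.71 ± 0.35), and Runx3 (0.69 ± 0.22). The 1 that fell was Hdac4 (-0.90 ± 0.19), a deacetylase that holds back hypertrophy in mouse growth plates. Mef2c, which Hdac4 represses, did not pass (0.33 ± 0.17). Of these 14, 5 rose with the series as a block, Runx3 not among them, and without day 5 replicate 4, 6 did.

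Genes of cartilage hypertrophy and mineralisation rose as well. Collagen X is made almost only by hypertrophic chondrocytes. Col10a1 read 7.35, 6.43, 5.99, 6.27 and 5.80 at day 5 and 10.71, 11.45, 11.77, 11.60 and 11.66 at day 10, with no overlap, and rose by 5.07 ± 0.38 (33.6-fold, adjusted p = 5.7e-12). All 9 measured genes of hypertrophy rose: after Col10a1 came Panx3 (2.70 ± 0.42), Scin (2.31 ± 0.23), Pth1r, the receptor of parathyroid hormone-related protein (2.0 ± 0.31), Ihh, Sgms2 (1.65 ± 0.31), Mmp13 (1.44 ± 0.29), Slc13a5 (1.28 ± 0.39) and Vegfa (0.90 ± 0.16). Of 9 mineralisation genes 6 rose. These were Smpd3 (2.29 ± 0.34), Phex (1.97 ± 0.37), the alkaline phosphatase Alpl (1.86 ± 0.37), Mgp, an inhibitor of mineral (1.39 ± 0.16), Phospho1 (0.82 ± 0.28) and Ank (0.58 ± 0.21). Alpl read 9.06, 9.75, 9.05, 7.77 and 7.91 at day 5 and 9.33, 11.02, 10.78, 10.72 and 10.99 at day 10, and here the groups overlapped. Unlike Matn3 and Cnmd, Col10a1 had a day 20 mean of 8.75 and Alpl one of 9.94.

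Hedgehog genes rose from ligand to target. Indian hedgehog (Ihh) comes from chondrocytes entering hypertrophy, binds Patched on neighbouring cells, frees Smoothened and turns on Gli1, Ptch1 and Hhip. Ihh read 5.65, 5.60, 5.25, 5.31 and 5.06 at day 5 and 5.98, 7.16, 7.35, 7.29 and 7.45 at day 10. The days did not overlap, and Ihh rose by 1.67 ± 0.19 (3.19-fold). Ptch1, both receptor and target, read 6.57, 7.44, 6.60, 6.55 and 6.43 at day 5 and 8.24, 9.57, 9.65, 9.55 and 9.69 at day 10. It too showed no overlap and rose by 2.62 ± 0.27 (6.16-fold, adjusted p = 9.5e-09). The antagonist Hhip read 3.96, 3.68, 3.74, 3.92 and 3.89 at day 5 and 5.43, 5.62, 5.79, 5.54 and 5.64 at day 10, without overlap, and rose by 1.77 ± 0.13 (adjusted p = 1.8e-12). Gli1, Gli2 and Gli3 rose by 1.30 ± 0.13, 1.26 ± 0.18 and 0.89 ± 0.20, Smo by 1.31 ± 0.17 and the co-receptor Boc by 1.05 ± 0.16. In all 9 of 13 measured members rose and 0 fell. Shh was called with a small change (0.28 ± 0.10), and Dhh, Gas1, Cdon and Sufu did not pass.

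In the Wnt list most receptors and secreted antagonists rose. Wnt ligands bind Frizzled and Lrp receptors, and Frzb, Wif1 and the Dkk proteins block them outside the cell. Of 15 receptors 13 rose, of 11 antagonists 7, of 18 ligands 4 and of 8 targets 4, and none fell. Without day 5 replicate 4 and day 10 replicate 1 together 7 ligands rose. Frzb read 5.96, 6.48, 5.35, 4.66 and 4.63 at day 5 and 7.26, 8.54, 9.16, 8.49 and 8.97 at day 10, without overlap, and rose by 3.07 ± 0.37 (8.38-fold). Wif1 rose by 1.84 ± 0.34, Dkk3 by 1.72 ± 0.19, Dkk1 by 1.41 ± 0.29 and Dkk2 by 1.10 ± 0.15. The receptors Lrp4, Fzd9 and Fzd8 rose by 1.30 ± 0.21, 1.29 ± 0.16 and 1.20 ± 0.17. Among ligands Wnt5a (1.06 ± 0.19), Wnt5b (0.80 ± 0.17), Wnt9a (0.48 ± 0.10) and Wnt3 (0.23 ± 0.06) rose. Axin2 and Lef1, usual readouts of the beta-catenin branch, read changes of 0.08 ± 0.13 and -0.07 ± 0.16 and did not pass (adjusted p = 0.73 and 0.79).

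The BMP and TGF-beta list had 21 of 43 members higher and 1 lower. Ligands that rose were Tgfb2 (1.03 ± 0.23), Tgfb3 (0.94 ± 0.24), Bmp2 (0.77 ± 0.17), Bmp4 (0.77 ± 0.22), Bmp5, Bmp3, Bmp6 and the joint-forming Gdf5 (0.66 ± 0.14). Of these 8 ligands 4 passed with the series as a block. Tgfb1, the ligand stored in platelets and bone matrix, did not pass (0.51 ± 0.28). The decoy receptor Bambi rose most in the list. Its values were 7.16, 7.78, 6.90, 6.47 and 6.36 at day 5 and 7.90, 8.66, 8.49, 8.59 and 8.84 at day 10, without overlap, a change of 1.56 ± 0.25. Of the receptors Bmpr1a rose (0.93 ± 0.20) and Acvr1b was the 1 member that fell (-0.63 ± 0.17). In the FGF list 4 of 5 receptors rose and 0 of 8 ligands did. Fgfr3, the receptor that restrains chondrocyte division, read 6.04, 6.06, 5.83, 5.56 and 5.59 at day 5 and 6.94, 7.96, 7.84, 7.98 and 8.23 at day 10, without overlap, and rose by 1.97 ± 0.20 (3.93-fold). Fgfr2 and Fgfr1 rose by 1.66 ± 0.21 and 0.89 ± 0.18. In the IGF list 8 of 11 rose, among them the growth factors Igf2 (1.48 ± 0.28) and Igf1 (1.20 ± 0.20) and the binding protein Igfbp3 (1.69 ± 0.22). The receptor Igf1r did not pass (-0.15 ± 0.12).

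Bone and resorption genes rose in part. Of 12 osteoblast and bone matrix genes 9 rose, of 9 osteocyte genes 7, and of 22 osteoclast genes 12. Col1a1, the main collagen chain of bone, read 11.27, 11.86, 11.39, 9.61 and 10.90 at day 5 and 11.53, 12.11, 11.93, 12.23 and 12.13 at day 10. The days overlapped, and the change was 0.98 ± 0.34 (adjusted p = 0.031). Bone sialoprotein (Ibsp) and osteonectin (Sparc) did not pass (0.33 ± 0.29 and 0.14 ± 0.17). Osteocyte genes that rose included Ptprz1 (2.03 ± 0.36), Phex and Dmp1 (1.24 ± 0.45), while the hormone Fgf23 fell (-0.37 ± 0.10). The fusion proteins Ocstamp and Dcstamp, which merge precursors into osteoclasts, rose by 1.55 ± 0.36 and 1.20 ± 0.23, the osteoclast cytokine Tnfsf11 by 0.74 ± 0.15 and its decoy Tnfrsf11b by 0.65 ± 0.18. Cathepsin K (Ctsk), the collagenase of osteoclasts, rose by 0.90 ± 0.31, and Acp5, their acid phosphatase, did not pass (0.83 ± 0.33). The 1 member that fell, Car2, is also a red cell gene and read 9.0, 7.81, 9.90, 7.75 and 6.74 at day 5 and 5.69, 7.11, 6.44, 7.03 and 7.49 at day 10. With the numbering series as a block 7 of the 22 osteoclast genes and 4 of the 9 osteocyte genes rose. Without day 5 replicate 4, the array with the lowest Col1a1, Col1a1 and Ctsk did not pass (0.63 and 0.66, adjusted p = 0.16 and 0.13).

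Fibrous matrix, proteases and vessels changed in the same interval. Of 14 fibrous collagens 13 rose, each without overlap, led by Col12a1 (1.93 ± 0.31) and Col6a2 (1.55 ± 0.23). Without day 5 replicate 4, and also with the numbering series as a block, 11 of the 14 rose. Of 21 fibrous glycoproteins 9 rose and 1 fell, and the fetal-type fibrillin Fbn2 rose by 2.35 ± 0.25. Prg4, the lubricin of joint surfaces, went the other way. It read 10.38, 10.71, 10.68, 10.19 and 10.76 at day 5 and 8.86, 7.21, 8.53, 8.52 and 7.53 at day 10 and fell by 2.42 ± 0.42, without overlap. Of 18 matrix metalloproteinases 8 rose, among them Mmp9 (1.78 ± 0.39), Mmp14 (1.43 ± 0.25) and Mmp2 (1.30 ± 0.25), and Mmp3 fell (-1.31 ± 0.23). Of 17 ADAMTS proteases 11 rose and 0 fell. Of 13 cathepsins 4 fell: Ctss (-0.90 ± 0.20), Ctsc (-0.77 ± 0.17) and Ctsl (-0.74 ± 0.14), enzymes of phagocyte lysosomes, and Ctse (-1.91 ± 0.60). Endothelial genes rose in 18 of 24 members, among them the apelin receptor Aplnr (1.36 ± 0.23), Kdr, the main VEGF receptor (1.03 ± 0.18), and Cdh5, the junction cadherin of vessels (0.93 ± 0.17). Mural cell genes rose in 7 of 9. Cspg4, which chondrocytes also make, read 6.95, 7.36, 6.84, 6.16 and 6.46 at day 5 and 8.13, 9.26, 9.0, 9.57 and 9.70 at day 10, without overlap, and rose by 2.38 ± 0.26. The lymphatic and macrophage gene Lyve1 fell (-1.03 ± 0.18), as did Vegfd, a lymphatic growth factor (-1.16 ± 0.22).

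Inflammatory chemokines fell between the days. Neutrophils are drawn by CXC chemokines that bind Cxcr2, and monocytes by CC chemokines that bind Ccr2. Of 54 chemokine genes 22 fell (40.7%, against 11.2% of all genes) and 0 rose, with a median of -0.35. The fallers were 8 of 15 CXC ligands, 9 of 19 CC and other ligands and 5 of 20 receptors, or 3 of 20 with the numbering series as a block. Cxcl5 read 7.30, 9.21, 9.39, 7.45 and 9.48 at day 5 and 6.04, 3.96, 6.54, 4.29 and 4.64 at day 10. Cxcl2 read 6.11, 7.25, 8.81, 7.68 and 8.73 at day 5 and 5.60, 3.82, 5.09, 3.60 and 3.65 at day 10. For both genes even the highest day 10 array was below the lowest day 5 array. Cxcl5 fell by 3.47 ± 0.44 (11.1-fold, adjusted p = 3e-07) and Cxcl2 by 3.36 ± 0.47 (10.3-fold, adjusted p = 1.4e-06). Their day 10 means of 5.10 and 4.35 stood beside day 0 means of 5.27 and 4.75. Cxcl1 and Cxcl3, close relatives, fell by 1.04 and 0.84, with overlap. The receptor Cxcr2 read 8.38, 8.97, 9.07, 7.66 and 8.42 at day 5 and 5.92, 7.47, 7.27, 6.41 and 6.71 at day 10 and fell by 1.74, without overlap. On the monocyte side Ccl12 fell by 1.94, Ccl2 by 1.77, Ccl7 by 1.73 and the receptor Ccr2 by 1.45. Cxcl12, which holds blood-forming cells in marrow, did not pass (-0.03 ± 0.16), nor did Cxcl9 (-0.06 ± 0.48).

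Promoters of 3 CXC ligands and of Il6 are shown because these genes fell, are textbook targets of NF-kB and carry its motif, so the choice of the 4 used the motif. Capitals mark GGG and TTTCC with any 2 bases between them on either strand (GGAAA and CCC, likewise spaced, when read from the other). The sequences are the 120 bases before the RefSeq start site, 5′ to 3′ on the strand of the gene, on build GRCm38.p6.
Cxcl2 (chr5:90903779-90903898, plus strand): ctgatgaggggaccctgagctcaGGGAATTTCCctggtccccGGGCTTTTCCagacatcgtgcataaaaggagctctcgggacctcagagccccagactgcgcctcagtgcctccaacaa
Cxcl1 (chr5:90891125-90891244, plus strand): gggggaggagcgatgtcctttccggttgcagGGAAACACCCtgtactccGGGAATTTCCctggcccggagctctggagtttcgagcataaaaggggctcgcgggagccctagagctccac
Cxcl3 (chr5:90785981-90786100, plus strand): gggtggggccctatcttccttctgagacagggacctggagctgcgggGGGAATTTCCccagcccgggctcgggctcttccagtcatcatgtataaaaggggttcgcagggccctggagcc
Il6 (chr5:30012994-30013113, plus strand): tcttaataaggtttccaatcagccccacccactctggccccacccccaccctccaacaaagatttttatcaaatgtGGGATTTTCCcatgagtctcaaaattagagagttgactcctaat
The motif was present in 1.63% of the 32851 promoters in the RefSeq table (300 bases around each start) and in 3 of the 11 measured CXC ligands that had a promoter there, which are the 3 shown. A ligand counted if any of its promoters held the motif, while the share of all is per promoter, so the units differ. Of the 7 CXC ligands that fell and had a promoter in the table, 4 did not hold the motif. Cxcl2 carries it at 97 and 78 bases before its start, Cxcl1 at 89 and 71, Cxcl3 at 73 and Il6 at 44. A match of letters describes the sequence and no binding was measured.

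Part of the cytokine list fell as well. Of 50 cytokine and mediator genes 16 fell and 2 rose. Il6 read 5.75, 6.95, 8.15, 6.26 and 7.65 at day 5 and 6.17, 3.97, 6.65, 3.83 and 4.13 at day 10, and the days overlapped. It fell by 2.0 ± 0.44 (4.01-fold, adjusted p = 0.00075), and its day 10 mean of 4.95 stayed above the day 0 mean of 3.61. Il1b fell by 1.5 and the decoy receptor Il1r2 by 1.96, and Tnf read a change of 0.00 ± 0.20 (adjusted p = 1.0). Among acute phase genes Saa3 read 8.05, 9.23, 9.60, 7.66 and 9.05 at day 5 and 7.07, 5.42, 6.34, 5.32 and 5.77 at day 10, without overlap, and fell by 2.74 ± 0.34 (6.66-fold). The alarmins S100a8 and S100a9, abundant in neutrophils, did not pass (-0.28 ± 0.18 and -0.25 ± 0.18). With the numbering series as a block 9 of the 50 fell. The 2 that rose were Ptgs2, the inducible cyclooxygenase (1.05 ± 0.34), and the receptor Lifr (0.64 ± 0.21), and neither passed with that block.

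Pattern recognition, macrophage and complement genes also fell. Of 17 pattern recognition receptors 14 fell, among them Cd14, the endotoxin co-receptor (-1.56 ± 0.23), Clec4e (-1.56 ± 0.36) and Tlr1 (-1.45 ± 0.29). Tlr3, which senses double-stranded RNA, rose by 0.69 ± 0.15. Of 24 macrophage genes 13 fell and 1 rose. Cd163 takes up haemoglobin. It read 6.36, 7.12, 6.80, 7.52 and 7.91 at day 5 and 4.44, 4.69, 4.75, 4.49 and 4.75 at day 10, without overlap, and fell by 2.52 ± 0.29 (5.72-fold, adjusted p = 6.7e-08). Mrc1, the mannose receptor, fell by 1.58 and Aif1 by 1.45. Cd68, Csf1r and Spi1, which osteoclasts share with macrophages, did not pass (0.14 ± 0.26, -0.32 ± 0.17 and 0.07 ± 0.25). The iron exporter Slc40a1 was the 1 that rose (1.29 ± 0.21). Arg1, an enzyme of repair macrophages, read 5.98, 7.76, 8.01, 7.75 and 7.75 at day 5 and 5.15, 4.55, 5.90, 5.18 and 4.84 at day 10, without overlap, and fell by 2.33 ± 0.28. Of 16 complement genes 7 fell, with C7 (-1.63 ± 0.29), C3ar1 (-1.51 ± 0.23) and C5ar1 (-1.16 ± 0.21) lowest, and C1s1 rose (0.62 ± 0.21). Interferon-induced genes fell in 8 of 25 members and rose in none, with Oas2, an antiviral RNA sensor (-1.26 ± 0.28), and Cxcl10 (-1.24 ± 0.34) lowest.

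**Figure D3:**
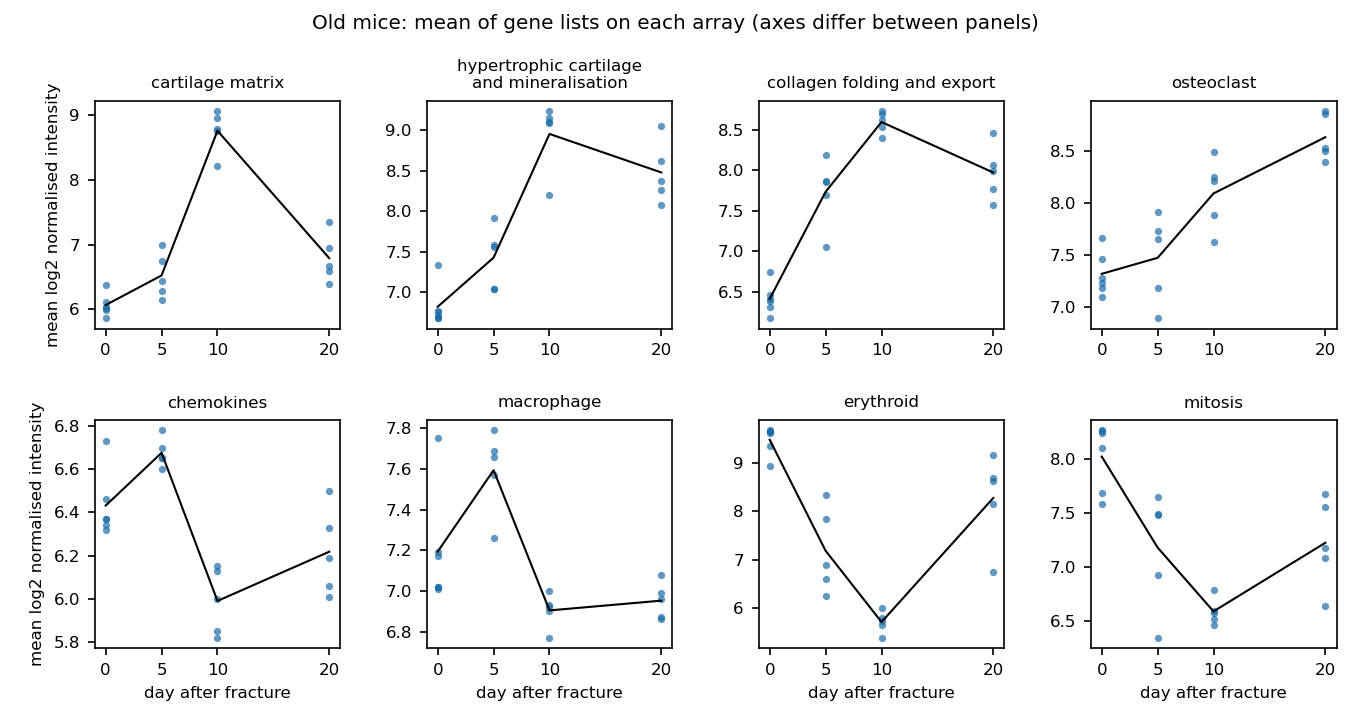
Mean log2 normalised intensity over the measured members of 8 gene lists on each old array at days 0, 5, 10 and 20, 1 point per array with the group mean as a line. Days 0 and 20 are shown for orientation only. The cartilage matrix list runs from 6.15 to 7.0 at day 5 and from 8.22 to 9.06 at day 10, and the erythroid list from 6.25 to 8.33 at day 5 and from 5.38 to 5.99 at day 10.

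Most erythroid genes and part of the B cell and neutrophil genes were lower at day 10, and erythroid levels varied among the day 5 arrays. Of 19 erythroid genes 15 fell and 0 rose (median -1.55). Car1, the carbonic anhydrase of red cells, read 9.26, 7.95, 10.33, 8.64 and 6.61 at day 5 and 4.96, 5.93, 5.99, 6.11 and 6.75 at day 10. Replicates 1 and 3 were the highest day 5 arrays, replicate 5 fell within the range of day 10, and the gene fell by 2.61 ± 0.66 (adjusted p = 0.0028). The anion exchanger Slc4a1 fell by 2.24 and Rhag by 2.13. Mean erythroid levels on the day 5 arrays were 7.85, 6.59, 8.33, 6.89 and 6.25 for replicates 1 to 5, and those on the day 10 arrays were 5.38, 5.72, 5.64, 5.79 and 5.99. At day 0 Car1 had a mean of 11.40, and at day 20 one of 10.60. Whether the share of marrow in the extracts differed was not tested beyond these values. Of 24 B cell genes 10 fell and 2 rose. The B cell surface gene Ms4a1 fell by 1.49 and the antibody joining chain Jchain by 1.59, while the 2 that rose, Ebf1 (0.81 ± 0.17) and Sdc1 (0.84 ± 0.19), are also expressed in stromal or matrix-making cells. Under the series block 4 of the 24 fell, and without day 10 replicate 1, 5 did. Of 19 neutrophil genes 5 fell, the granule genes Camp (-0.84 ± 0.41) and Ngp (-0.93 ± 0.39) not passing, and the list mean was 7.0 on day 10 replicate 1 and 7.71 to 8.36 on the other day 10 arrays. T and NK cell genes had 1 of 23 lower and 0 higher, the NK receptor Ncr1 (-0.51 ± 0.15).

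Muscle, fat and skin were checked as neighbouring tissues. Of 31 genes of mature skeletal muscle 0 were called in either direction by limma, while 2 had an unadjusted p under 0.05, and the muscle list means overlapped between the days (9.13 to 10.21 at day 5 and 9.35 to 9.73 at day 10). Genes of muscle regeneration differed from this: 11 of 15 fell, among them Mymk, the fusion protein of myoblasts (-1.48 ± 0.29), Chrna1, a subunit of the acetylcholine receptor (-1.39 ± 0.29), and Myog (-0.94 ± 0.30). Mymk read 9.42, 9.43, 8.96, 7.39 and 9.0 at day 5 and 7.62, 7.31, 7.21, 7.66 and 7.02 at day 10, with overlap. Of 12 adipocyte genes 10 fell, and Adipoq, the fat hormone adiponectin, read 7.42, 6.63, 7.19, 8.65 and 7.10 at day 5 and 5.36, 6.08, 5.98, 5.81 and 5.85 at day 10. Its groups did not overlap, day 5 replicate 4 was the highest, and it fell by 1.58. Without that array 4 of the 12 adipocyte genes fell, and without day 10 replicate 1, 6 did. With the numbering series as a block 5 adipocyte genes and 6 muscle regeneration genes fell. Of 12 epidermal genes 2 fell, Krt1 (-0.93 ± 0.31) and Lor (-0.52 ± 0.18), and Krt14, at 4.61, 4.65, 4.77, 4.61 and 8.58 at day 5 and 4.63, 4.09, 4.01, 4.66 and 4.03 at day 10, did not pass (adjusted p = 0.059). Day 5 replicate 5 carried the high values, and 0 of the 12 fell with the numbering series as a block. S100b, a Schwann cell gene that chondrocytes also make, rose by 1.97 ± 0.25, while the Schwann factor Sox10 did not pass (-0.17 ± 0.15).

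Cell division genes were lower at day 10, and how many passed the test depended on 1 array and on the numbering series block. Of 33 DNA replication genes 18 fell and 0 rose (median -0.58), and of 46 mitosis genes 20 fell and 0 rose (median -0.60). Mean mitosis levels were 7.48, 7.49, 7.65, 6.35 and 6.93 on day 5 replicates 1 to 5 and 6.79, 6.60, 6.58, 6.47 and 6.52 on the day 10 arrays. Day 5 replicate 4 had the lowest mean of all 10, and without it 27 replication genes and 41 mitosis genes fell. With the numbering series as a block 11 and 7 fell. In unfractured old bone (day 0) mean mitosis levels were 7.58 to 8.26. Whether the share of marrow in the extracts contributed to the fall was not tested. Cdk1, the kinase that starts mitosis, read 8.20, 8.41, 8.28, 7.23 and 8.0 at day 5 and 7.85, 7.26, 7.32, 7.23 and 7.30 at day 10, with overlap, and fell by 0.63 ± 0.20 (adjusted p = 0.018). Pcna, the sliding clamp of replication, read 10.30, 10.33, 10.48, 9.74 and 9.75 at day 5 and 9.67, 9.53, 9.47, 9.15 and 9.31 at day 10, without overlap, and fell by 0.70. Mybl2, a driver of late cell cycle genes, fell by 0.98 and Kif22, a chromosome motor, by 0.76. The widely used marker Mki67 did not pass (-0.66 ± 0.28, adjusted p = 0.084), nor did Top2a (-0.53 ± 0.22). Among 12 cell cycle inhibitors Cdkn2b (1.25 ± 0.21) and Cdkn1c (1.01 ± 0.16) rose, and 5 fell, among them Rb1 (-0.91 ± 0.18) and Rbl1 (-0.84 ± 0.20).

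Promoters of Cdk1 and Kif22, which fell together with the mitosis list, are shown because mitotic genes share CCAAT boxes and the element TTTGAA and both promoters carry them. Capitals mark either motif on either strand (ATTGG and TTCAAA when read from the other). The sequences again are the 120 bases before the RefSeq start site, on build GRCm38.p6 and the strand of the gene.
Cdk1 (chr10:69352913-69353032, minus strand): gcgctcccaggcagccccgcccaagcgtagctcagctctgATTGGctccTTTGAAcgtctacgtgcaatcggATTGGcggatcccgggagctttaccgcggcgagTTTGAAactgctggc
Kif22 (chr7:127042421-127042540, minus strand): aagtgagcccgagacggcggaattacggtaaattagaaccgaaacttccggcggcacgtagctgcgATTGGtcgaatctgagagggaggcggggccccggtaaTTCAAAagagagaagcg
CCAAT was found in 28 of the 38 mitosis genes with a promoter in the RefSeq table (73.7%) and in 37.4% of all 32851 promoters. TTTGAA was found in 28 of the 38 (73.7%) and in 17.9% of all. Both were found in 24 of the 38 (63.2%) and in 6.95% of all. The units differ: a gene counted if any of its promoters held the motif, while the share of all is per promoter. This favours genes with several promoters. In this window Cdk1 has CCAAT at 80 and 48 and TTTGAA at 71 and 15 bases before its start, and Kif22 has them at 54 and 17.

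Probe sets named for microRNA loci read the RNA of the locus, not the mature microRNA. Of 300 genes named for such loci, host transcripts included, 17 were called higher and 7 lower, with a median change of 0.01. Both are smaller shares than the 14.3% and 11.2% of all genes, so the loci named below are single genes and not a trend. The mature sequences of 6 are given with the seed, bases 2 to 8, in capitals, because the seed decides which messages a microRNA pairs with. They come from RefSeq on build GRCm38.p6, and none of the 6 shares its seed with another.
mmu-miR-99a-5p (chr16:77598940-77598961, plus strand): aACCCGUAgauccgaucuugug
mmu-let-7c-5p (chr16:77599672-77599693, plus strand): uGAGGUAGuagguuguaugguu
mmu-miR-15a-5p (chr14:61632075-61632096, minus strand): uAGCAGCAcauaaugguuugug
mmu-miR-181b-5p (chr2:38853845-38853868, plus strand): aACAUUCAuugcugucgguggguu
mmu-miR-144-3p (chr11:78073047-78073066, plus strand): uACAGUAUagaugauguacu
mmu-miR-340-5p (chr11:50069720-50069741, plus strand): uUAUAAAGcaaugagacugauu
Mir99a read 4.33, 5.21, 4.40, 4.70 and 4.47 at day 5 and 6.91, 7.15, 7.44, 6.81 and 6.89 at day 10, without overlap, and rose by 2.41 ± 0.38 (5.33-fold). Its host transcript Mir99ahg read 5.58, 6.07, 5.56, 5.78 and 5.50 at day 5 and 8.06, 7.25, 7.87, 7.51 and 7.52 at day 10, also without overlap, and rose by 1.94 ± 0.23. Mirlet7c-1, on the same strand of chromosome 16 near Mir99a, rose by 0.55 ± 0.13 (named after its values were seen). Mir15a rose by 1.31 ± 0.30 and Mir181b-2 by 1.20 ± 0.28, each without overlap. Mir144, an erythroid locus, read 3.53, 3.29, 3.49, 3.36 and 3.22 at day 5 and 2.44, 2.45, 2.54, 2.58 and 2.55 at day 10 and fell by 0.87, beside the fall of the erythroid genes. Mir340 fell by 1.06, without overlap, and read 2.64 to 2.86 at day 10. The day 10 values of Mir144 and Mir340 lie near the lowest value of any probe set in the study (1.92).

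Outside the lists, the genes with the highest change included C1qtnf3, a secreted relative of C1q made by cartilage (2.97 ± 0.44), Fam180a (2.81 ± 0.26) and Moxd1 (2.72 ± 0.31). C1qtnf3 read 9.50, 9.16, 8.58, 6.26 and 7.72 at day 5 and 11.87, 10.67, 11.28, 11.09 and 11.14 at day 10, without overlap. Those with the lowest change included Prxl2a (-2.20 ± 0.37), Cnksr1 (-2.01 ± 0.32), Gadd45a, a stress-response gene (-1.91 ± 0.27), and Trim63, a ubiquitin ligase of wasting muscle (-1.88 ± 0.42). Gadd45a read 9.73, 8.92, 10.06, 10.92 and 9.89 at day 5 and 7.66, 8.04, 8.0, 8.34 and 7.91 at day 10, without overlap. Trim63 fell while the 31 genes of mature muscle gave no call.

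**Figure D4:**
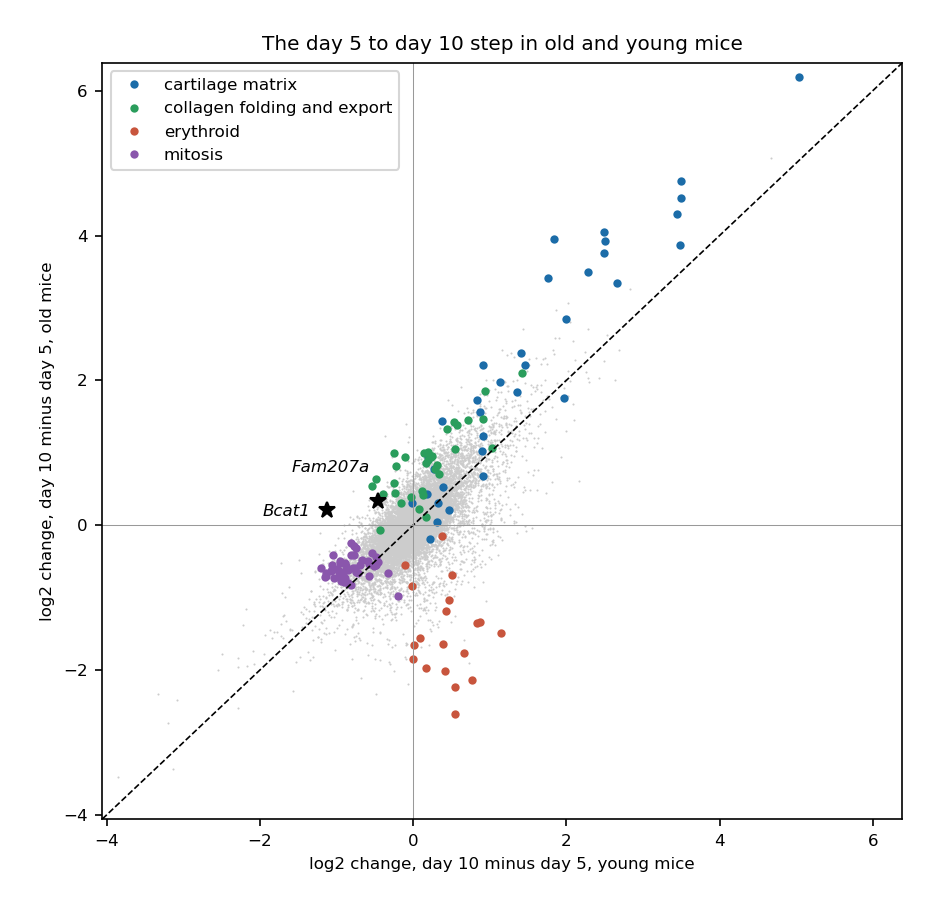
Log2 change from day 5 to day 10 in old mice against the same change in young mice for all 19938 genes, with cartilage matrix, collagen folding, erythroid and mitosis genes coloured and the line of equal change dashed. Fam207a and Bcat1, the 2 genes whose steps differed by test, are named, and no coloured gene had a difference that passed.

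The same step was taken by the 5 young day 5 and 5 young day 10 arrays. All young day 5 sample names start with a letter and none of the young day 10 names does, so numbering series and day coincide there. Of the 2847 genes called higher in old mice 1401 were also called higher in young (49.2% of the old and 65.1% of the young calls), and of the 2235 called lower 1067 were shared (47.7% and 55.6%). Only 8 genes were called in opposite directions. The difference between the old and the young step was tested for every gene, and limma called 2 of 19938 (0.01%), while 2203 had an unadjusted p under 0.05 (11%). A difference between the steps carried a median SE of 0.17, against 0.12 for the old step itself.

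Bcat1 and Fam207a were the 2 genes that differed. Bcat1, which starts the breakdown of branched-chain amino acids, read 7.44, 7.99, 7.57, 6.50 and 7.56 at day 5 and 7.86, 7.60, 7.58, 7.53 and 7.58 at day 10 in old mice, a change of 0.22 ± 0.18 that did not pass, while in young mice it fell by 1.13. The difference was 1.34 ± 0.25 (adjusted p = 0.045). Fam207a read 5.56, 5.91, 5.87, 5.79 and 5.68 at day 5 and 5.82, 6.28, 6.01, 6.17 and 6.23 at day 10 and rose by 0.34 ± 0.10 in old mice, and in young mice it fell by 0.46. That difference was 0.80 ± 0.15 (adjusted p = 0.045). Leaving out 1 of the 20 arrays of these 4 groups at a time kept each call in 6 of 20 fits, and without day 5 replicate 4, the array with the lowest Bcat1, the difference was 1.11 for Bcat1 and 0.80 for Fam207a (adjusted p = 0.066 for both). Ucma, a cartilage matrix protein, was just outside the threshold: it rose by 3.96 ± 0.31 in old and 1.84 in young mice (adjusted p = 0.064).

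The medians of several lists differed between old and young mice in either direction, with no member whose difference passed. The cartilage matrix median was 1.91 in old and 1.24 in young mice, that of collagen folding and export 0.88 and 0.18, and that of sulphate and glycosaminoglycan synthesis 0.51 and 0.09. Without old day 5 replicate 4 the old medians of these lists were 1.87, 0.64 and 0.44. Erythroid genes had medians of -1.55 and 0.43, with 0 of 19 called in young mice. Mature muscle genes had medians of -0.08 and 0.84. Of these 31 genes 0 were called in old mice and 9 were called higher in young. In young mice 10.8% of all genes were called higher. Mitosis genes had a median of -0.85 with 35 of 46 lower in young mice, where 9.62% of all genes were called lower, and of -0.60 with 20 of 46 lower in old. The smallest adjusted p of a difference was 0.064 among the 34 cartilage matrix genes, 0.17 among the 34 collagen folding genes, 0.13 among the 19 erythroid genes and 0.27 among the 46 mitosis genes. A p that misses the threshold does not show that the ages moved alike.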

How the data were processed

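Labelled cDNA was hybridised to Affymetrix Mouse Gene 1.0 ST arrays, per the labels' protocols, and Partek is the 1 tool named in the submitters' processing notes. The deposited values are log2 normalised intensities of 28815 probe sets on 41 arrays, and how the authors normalised them is not given in the sources used here. The whole-series table and the value table hold the same values, with array medians of 5.37 to 5.48. An array has no read depth, so the number of arrays limits the precision.

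Probe sets were named through the platform annotation: 21782 carried 1 gene, 1598 several and 5435 were not listed, and only the first kind was used. For a gene with several probe sets the one with the highest mean was kept, leaving 19938 genes. A linear model with 8 group means was fitted to all 41 arrays with limma 3.58.1 in R 4.3.3 (33 residual degrees of freedom). P-values are two-sided, moderated, and adjusted over all genes by Benjamini-Hochberg, and a gene was called at an adjusted p under 0.05. The old step, the young step and their difference were the 3 contrasts. Each change is given on the log2 scale ± its standard error, with 5 mice per group. No per-sample column was left unused. Figures and tables were made with Python 3.11.15.

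The 45 gene lists (1103 members measured of 1194 written) and the comparison were chosen with earlier results of these data known. Genes were named by rule: the 20 highest and 20 lowest called changes without overlap, up to 8 called members per list role and direction and 4 uncalled ones, up to 10 genes at each end of the difference between the ages, and the 5 highest and 5 lowest called microRNA loci. Data were simulated from the group means and residual spread of the 19938 genes. Changes of 0.5, 1 and 2 on the log2 scale were given to 67, 67 and 66 genes. Noise was independent between genes, without a numbering series. The old step recovered 58.2%, 91% and 100% of these changes, and 2.92% of calls were false. In the real data 5082 genes were called, so these shares need not carry over to them. Replicate numbers were not treated as pairs, since each array came from its own mouse. Deviations of same-numbered arrays from their group means correlated at 0.001 to 0.076. Differently numbered arrays were not compared, so these values do not decide whether same-numbered arrays share a batch. No 2 arrays held identical values.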

Additional observations from a re-analysis of the deposited data

Results flagged for a closer look

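An array was picked out where its gap to the nearest of the other 4 arrays of its group exceeded 0.71 of the group's range (Dixon's 95% critical value). This was checked for the genes named here and for list means, 570 groups of 5 in all, and 59 exceeded it (10.4%, where chance gives about 5%). The genes are not independent of each other. Day 10 replicate 1 gave 38 of them.

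Day 10 replicate 1 was lowest for Alpl (9.33 against 10.72 to 11.02), Aplnr (8.92 against 9.27 to 9.41), Bmp3 (4.86 against 5.71 to 6.05), Camp (8.86 against 10.43 to 10.86) and Cdh5 (9.15 against 9.61 to 9.74). Further, it was lowest for Chad (8.23 against 10.80 to 10.98), Clec3a (10.18 against 11.27 to 11.63), Col27a1 (6.47 against 6.92 to 6.93), Col2a1 (8.62 against 10.25 to 10.58) and Col9a2 (6.53 against 7.75 to 7.97). Below the other 4 it also read Dlx5 (7.55 against 9.10 to 9.34), Fgfr2 (8.16 against 8.74 to 8.86), Ihh (5.98 against 7.16 to 7.45), Mef2c (9.72 against 10.05 to 10.13) and Mgp (12.11 against 12.47 to 12.58). Other low values on this array were Mmp13 (10.84 against 11.41 to 11.64), Ngp (8.23 against 9.96 to 10.49), Panx3 (9.32 against 10.50 to 10.63), Ptch1 (8.24 against 9.55 to 9.69) and Pth1r (8.22 against 9.65 to 9.96). It was low as well for Runx3 (6.54 against 7.41 to 7.57), S100a8 (11.51 against 12.12 to 12.31), Sgms2 (8.77 against 9.89 to 10.16), Slc13a5 (7.98 against 9.44 to 9.67) and Smo (7.43 against 7.94 to 8.12). It lay below its group for Smpd3 (7.93 against 9.53 to 10.08), Snorc (7.88 against 9.78 to 10.29), Sp7 (7.86 against 9.34 to 9.73), Vit (6.09 against 6.83 to 7.12) and the mean of the cartilage transcription factors list (6.69 against 7.04 to 7.16). Further, it was lowest for the mean of the hypertrophic cartilage and mineralisation list (8.20 against 9.08 to 9.23), the mean of the hedgehog list (6.35 against 6.70 to 6.73) and the mean of the FGF list (6.18 against 6.38 to 6.42). Day 10 replicate 1 was highest for Bcat1 (7.86 against 7.53 to 7.60), Cdk1 (7.85 against 7.23 to 7.32), Mki67 (8.48 against 8.06 to 8.18), Ogn (11.70 against 10.90 to 11.13) and Rian (7.91 against 5.63 to 6.24).

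Day 5 replicate 1 was lowest for Arg1 (5.98 against 7.75 to 8.01) and Vegfa (7.19 against 7.74 to 7.96). Day 5 replicate 1 was highest for Clec3a (6.47 against 4.39 to 4.71), Mia (4.84 against 3.75 to 3.99) and Ms4a1 (6.43 against 5.29 to 5.61). Day 5 replicate 2 was highest for Ptch1 (7.44 against 6.43 to 6.60). Day 5 replicate 4 was lowest for Mymk (7.39 against 8.96 to 9.43), Myog (6.26 against 7.79 to 8.40), Smo (5.71 against 6.61 to 6.95), Sparc (11.88 against 12.51 to 12.75) and Spi1 (7.35 against 8.38 to 8.74). It was also lowest for the mean of the pattern recognition list (6.25 against 6.78 to 6.95). Day 5 replicate 4 was highest for Bmp6 (6.40 against 5.69 to 5.85). Day 5 replicate 5 was lowest for Col9a3 (5.71 against 6.22 to 6.42). Day 5 replicate 5 was highest for Krt1 (6.49 against 3.83 to 3.93), Krt14 (8.58 against 4.61 to 4.77), Lor (5.36 against 3.87 to 4.12) and the mean of the epidermis list (5.64 against 4.28 to 4.38). Day 10 replicate 3 was lowest for Mir340 (2.64 against 2.80 to 2.86). Day 10 replicate 3 was highest for Il1r2 (5.94 against 4.66 to 4.95). Day 10 replicate 5 was highest for Rhag (4.63 against 3.76 to 3.96).

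The step differed between old and young mice, by the test of the difference itself, for Bcat1 (1.34 ± 0.25) and Fam207a (0.80 ± 0.15). Both calls rest on the setting used, as the counts by processing show.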

How the results depend on the processing

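The number of genes called between the days stayed within 1.5 times of 5082 under every alternative but 2: it was 3129 with the numbering series of the sample names as a block and 829 with a minimum of 2-fold. Leaving out 1 old array at a time gave 4370 to 4976. With the replicate number as a block, though no mouse gave more than 1 array, 5046 genes were called. Of the 217 called genes named here, 184 kept call and direction under every alternative that measured them, none reversed, and 26 were no longer called with the numbering series as a block.

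The number of genes whose step differed between the ages was small under most alternatives and not stable. Against 2, it was 5 after quantile normalisation and 5 after median centring, 4 with a milder and 8 with a stricter filter on dim genes, 7 with the replicate block, 158 with array quality weights, and 0 with the unmoderated model, with trend and robust moderation, with only the groups compared and with the numbering series as a block. Leaving out 1 array at a time gave 0 to 47, and without day 5 replicate 4 and day 10 replicate 1 of the old mice together, an alternative chosen after seeing the data, it was 17. The cause was not tested.

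Counts of list members were recomputed under 4 alternatives chosen after seeing the data. With the numbering series as a block the count higher became 4 for osteocyte, 7 for osteoclast and 6 for mesenchymal progenitor genes, and the count lower 9 for cytokines, 4 for B cell, 6 for muscle regeneration, 5 for adipocyte, 11 for DNA replication and 7 for mitosis genes. Leaving out day 5 replicate 4 or day 10 replicate 1 moved the count lower of mitosis genes to between 22 and 41, of adipocyte genes to 4 and 6 and of B cell genes to between 5 and 7. Without both arrays these were 42, 4 and 5.

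Old day 5 and day 10 arrays share only the series of numbers over 50 (1 day 5 and 3 day 10 arrays), so series and day are nearly confounded in old mice. In young mice these days share no series. All 5 young day 5 names start with a letter, and the young day 10 names are numbers over 50 (3) or under 50 (2). Series and day are fully confounded there, a limit that the young step and the difference between the ages carry. The labels do not say which extracts were whole bone.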

Other observations

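Imprinted genes, expressed from 1 parental copy and active in fetal growth, were looked at after several of them were seen among the highest changes. Of 39 measured 19 rose and 2 fell, with a median change of 0.22, beside 14.3% and 11.2% of all genes. Zim1 rose by 3.26 ± 0.24, Plagl1, a zinc finger factor, by 2.59 ± 0.24 and Peg3, another, by 2.58 ± 0.27. Peg3 read 8.06, 7.88, 7.79, 7.21 and 7.32 at day 5 and 9.94, 10.13, 10.50, 10.20 and 10.41 at day 10. The noncoding RNA Rian rose by 2.01 ± 0.40, Mest by 2.01 ± 0.31, the growth restraint Grb10 by 1.64 ± 0.21 and Dlk1 by 1.16 ± 0.21, while Gatm (-1.34 ± 0.26) and Nnat (-0.94 ± 0.18) fell. Since the list was chosen for these values, its count is a description.

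Tendon and progenitor genes also moved. Of 7 tendon and ligament genes 3 rose: Tnmd, the tendon relative of chondromodulin (2.39 ± 0.37), Kera (1.59 ± 0.39) and the tendon factor Mkx (1.13 ± 0.20). Of 17 mesenchymal progenitor genes 10 rose (6 with the numbering series as a block) and 0 fell, led by Nt5e, the ecto-enzyme CD73 (1.99 ± 0.21), and of 15 cholesterol synthesis genes 5 rose and 0 fell, Hmgcs1 the most (0.76 ± 0.14). Of 11 joint and synovium genes 2 rose and 4 fell, with Tspan8 (-2.33 ± 0.44) lowest after Prg4. Of 9 platelet genes 3 fell and 1 rose, with Pf4 (-1.45 ± 0.29) lowest, and of 17 antigen presentation genes 5 fell, with the dendritic cell receptor Flt3 (-0.97 ± 0.16) lowest. Of 14 senescence and secreted factor genes, which share Il6, Ccl2 and others with the inflammatory lists, 4 rose and 8 fell. Hypoxia and glycolysis genes had 4 of 28 higher (14.3%) and 2 lower (7.14%). Mast cell, basophil and eosinophil genes had 1 of 15 higher (6.67%) and 2 lower (13.3%). Immediate early and heat shock genes had 4 of 29 higher (13.8%) and 3 lower (10.3%), or 1 and 0 with the numbering series as a block. Over all genes 14.3% were higher and 11.2% lower, so these lists lay near or below the background. Of 31 genes of mitochondrial respiration 1 fell and 0 rose, and of 10 nerve and Schwann cell genes 3 rose and 2 fell.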
